A study of Homo sapiens with 9 samples.

Results

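Heat shock proteins and cytosolic chaperones were followed as a set of 43 genes, chosen by symbol from a list of HSP90, HSP70 and HSP110, J-domain, BAG, co-chaperone, CCT ring and mitochondrial chaperonin genes with the heat shock factors HSF1 and HSF2. All 43 of 43 listed genes were found in the files of the 9 libraries and were above 0 in every library. The files list 60420 gene IDs, of which 13825 were above 0 in all 3 groups and were tested. The libraries are QuantSeq libraries, which read messenger RNA from the 3' end, made from total RNA of A375, a human melanoma cell line. They fall into 3 groups of 3 libraries. These are the EV control and 2 knockdowns of SPANX labelled SPANX KD 86 and SPANX KD 87, with RNA taken 7 days after the knockdown. SPANX genes encode cancer-testis antigens, proteins normally made in developing sperm. The labels name no other treatment. They do not say what EV abbreviates or which knockdown reagents the numbers 86 and 87 stand for. Nor do they say whether the replicates are separate cultures, so the p-values below measure only the spread between these libraries.

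Chaperones bind unfolded proteins and help them reach or keep their native shape. HSP70 proteins take up clients delivered by J-domain proteins and are reset by BAG and HSP110 proteins. HSP90 proteins finish the folding of kinases and hormone receptors with the help of co-chaperones, and the ring-shaped CCT complex folds actin and tubulin. Many of these genes are switched on by the transcription factor HSF1 when cells are heated or otherwise stressed, and melanoma cells, like other cancer cells, carry high levels of several of them.

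Recovered depth was 11310800 to 15564200 reads per library, from the spacing of the deposited values. The SPANX genes looked up, SPANXC and SPANXD, were low in both knockdowns. The labels used here name SPANX without a gene of the family. SPANXC stood at 400, 149.8 and 510.9 normalised reads in the EV libraries, at 101.7, 35.1 and 42.2 with SPANX KD 86 and at 25.22, 18.02 and 33.52 with SPANX KD 87. SPANXD stood at 102.2, 27.4 and 97.01 in EV, at 0.969, 0.879 and 0 with SPANX KD 86 and at 5.25, 6.01 and 7.11 with SPANX KD 87. SPANX genes are near-identical copies, so reads could be split among them. Of 9 melanocyte lineage markers 5 were above 0 (MITF, PMEL, SOX10, S100B and S100A1), while MLANA, TYR, TYRP1 and DCT were listed at 0 in all libraries. The summed level of the melanocyte list was 3271 to 6715 in EV, 15550 to 21770 with SPANX KD 86 and 8803 to 12990 with SPANX KD 87, and most of it was SOX10, at 2266 to 5890, 12750 to 19640 and 7080 to 11370 in the same order. S100A1 was also higher, at 116 to 243.6, 1450 to 1587 and 580.1 to 858.6, whereas MITF, PMEL and S100B with SPANX KD 86 overlapped EV. All 5 fibroblast markers were above 0 in at least 1 library, with summed levels of 394.7 to 451.1, 942.5 to 1294 and 847.7 to 1049. KRT14, the 1 epithelial marker of 4 above 0, stood at 218.8 to 357.8 in EV, 50.42 to 116.2 with SPANX KD 86 and 306.8 to 552.8 with SPANX KD 87. The melanoma state markers were AXL, at 5546 to 9075, 2744 to 3779 and 7780 to 11290, and NGFR, at 604.5 to 1860, 2350 to 4350 and 1936 to 4056. All 4 leukocyte and 3 endothelial markers were at 0. Several of these markers thus differed between the groups alongside the chaperone results below. The part of these markers in the chaperone results was not tested.

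Most of the chaperone genes were lower with SPANX KD 86 than in EV. Of the 43 members 27 fell and 0 rose against EV (limma adjusted p under 0.05 over all genes tested), while 17.6% of all genes tested fell and 18% rose. The median log2 fold change of the members was -0.83, that of all genes -0.04, and 38 of 43 members were below 0. In 29 members all 3 SPANX KD 86 libraries lay below all 3 EV libraries, and in 1 member, HSPA2, they lay above; over all genes, 22.8% were separated below and 22.5% above. Fewer cells that make these transcripts and less transcript per cell cannot be told apart in bulk RNA.

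With SPANX KD 87, 4 members passed the test, HSPA1A, HSPA2, HSPA9 and HSPD1, all of them lower, and 0 rose, while 4.42% of all genes fell and 5.9% rose. The median of the members was -0.40, beside 0 for all genes, and 37 of 43 members were below 0. The libraries of this knockdown lay below all EV libraries in 15 members (14% of all genes) and above them in 1, DNAJC7 (15.2% of all genes). The count depends on the model. When the replicate number was added as a block, 19 members were lower with SPANX KD 87 (14.8% of all genes) and 32 with SPANX KD 86 (28.3% of all genes). The values of the libraries go together by this number, but the labels state no pairing. The 5 members that the block added for SPANX KD 86 were HSPA4L, HSPA8, DNAJA1, ST13 and CCT8. The 15 that it added for SPANX KD 87 were HSP90AA1, TRAP1, HSPA1B, HSPH1, FKBP4, STIP1, AHSA1, CHORDC1, PTGES3, CCT3, CCT4, CCT5, CCT8, TCP1 and HSPE1, with blocked limma adjusted p from 0.00646 to 0.0449 (0.00347 to 0.518 over all alternatives). The count for SPANX KD 87 also depends on single libraries, since 0 members passed for SPANX KD 87 without EV replicate 1, SPANX KD 87 replicate 1 or SPANX KD 87 replicate 2, and 8 passed without EV replicate 2 or 3.

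Compared directly, the knockdowns differed in 12 members. In 11 the level was higher with SPANX KD 87 than with SPANX KD 86 (12.7% of all genes tested), and in 1, HSPA2, it was lower (12.9% of all genes). The 11 were HSP90AA1, HSP90AB1, TRAP1, DNAJC7, FKBP4, CHORDC1, CDC37, CCT7, HSPD1, HSPB1 and HSF2. The median difference over the members was 0.45 on the log2 scale, beside 0.02 over all genes. With the block there were 21 higher and 2 lower (22.2% and 21.9% of all genes). The 11 members added were HSPA1B, HSPA8, BAG1, PTGES3, ST13, UNC45A, CCT3, CCT6A, TCP1 and HSPE1 as higher and DNAJB1 as lower, with blocked limma adjusted p from 0.00826 to 0.0425 (0.00276 to 0.574 over all alternatives). Without SPANX KD 86 replicate 2 only 6 members differed, and without SPANX KD 87 replicate 3 only 7. Both knockdowns are compared with the same EV libraries. Of the 43 members, 3 passed as lower in both (HSPA1A, HSPA9 and HSPD1; 1.79% of all genes were lower in both), 24 passed with SPANX KD 86 only, 1 (HSPA2) with SPANX KD 87 only and 15 with neither. A difference between the knockdowns was shown in 10 of these 24.

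**Figure D1:**
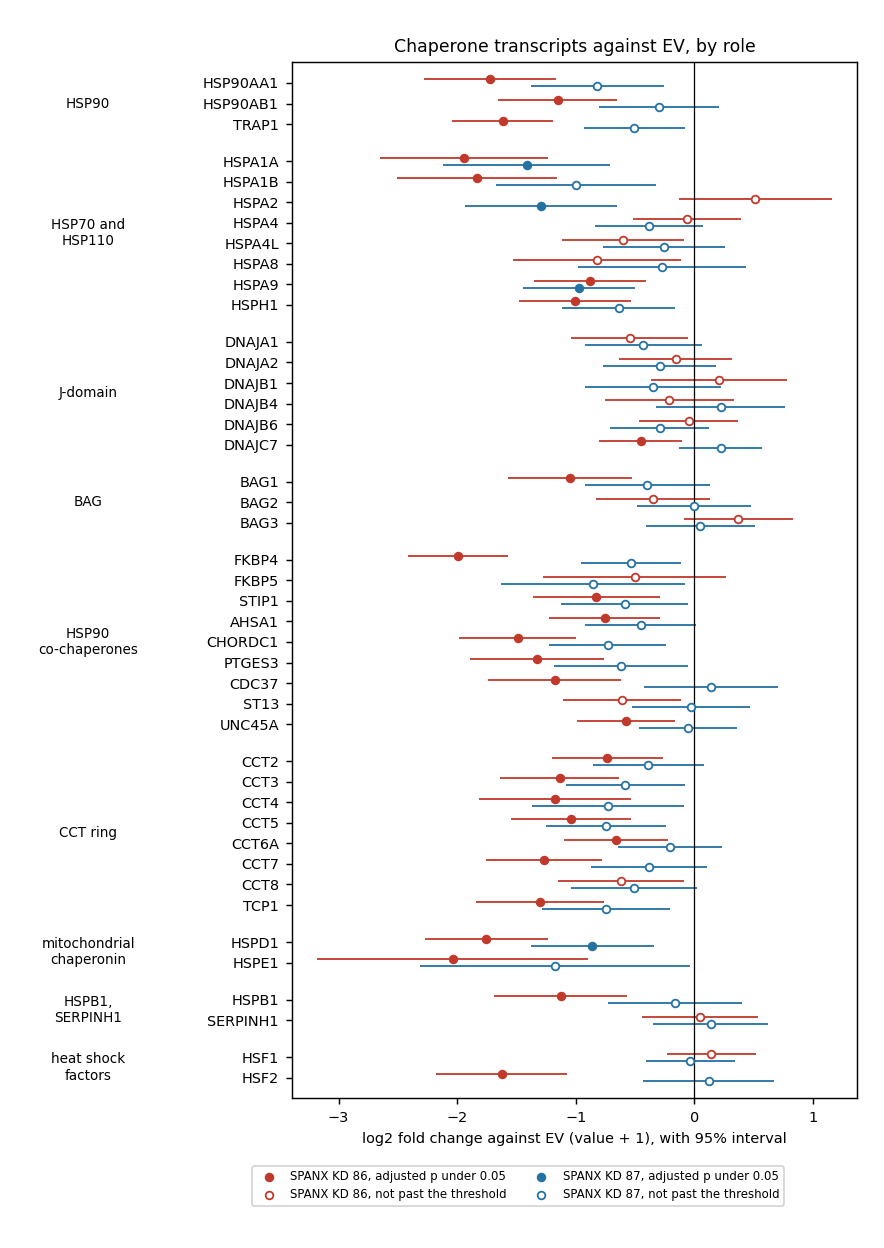
Log2 fold change of each member against EV (x axis, on the value plus 1 scale) for SPANX KD 86 (red) and SPANX KD 87 (blue), grouped by role; lines are 95% intervals from limma, and filled points passed an adjusted p of 0.05. Of the red points 27 are filled, all left of 0, and of the blue points 4 are filled, with HSPA2 the member whose red and blue points lie on opposite sides of 0 at the greatest distance.

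Heat shock factors bind an inverted repeat of the unit GAA, the heat shock element, and the sequence upstream of each member was searched for it. RefSeq windows (GRCh38.p14) from 250 bases before to 50 bases after a start site were matched for 39 of the 43 members, in 57 windows; CCT6A, FKBP4, HSF1 and ST13 had none. The patterns searched, on both strands, were GAANNTTC and TTCNNGAA, and the 3-unit element in which they overlap, with units of GAA, TTC and GAA each 2 bases apart; each 3-unit match therefore also holds both shorter patterns. It was found in 8 of 39 members (20.5%), HSP90AA1, HSP90AB1, HSPA8, DNAJA1, DNAJB6, CHORDC1, HSPD1 and SERPINH1, beside 166 of 27305 genes (0.608%) in the whole table, and in 14.0% of the members' windows beside 0.49% of all windows. Either of the shorter patterns was found in 20 members (51.3%) beside 16.2% of all genes. The stretches below are 30 bases each, written 5′ to 3′ on the gene's strand, with the matches to the shorter or longer patterns in capitals; they are shown because genes that share the element were called lower in some cases and not in others.
HSP90AA1: cTTCCGGAAGGTTCgggaggcTTCTGGAAa
HSP90AB1: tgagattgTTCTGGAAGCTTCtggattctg
HSPA8: cgggccccTTCTGGAAGGTTCtaagatagg
HSPD1: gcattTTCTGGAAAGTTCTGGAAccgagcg
CHORDC1: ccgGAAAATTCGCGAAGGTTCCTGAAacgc
SERPINH1: ttccaactTTCCAGAAGTTTCtcgggacgg
HSPA1A: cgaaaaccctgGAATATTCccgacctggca
HSPA1B: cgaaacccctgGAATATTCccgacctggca
DNAJB1: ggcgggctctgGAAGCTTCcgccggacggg
They lie at chr14:102087104-102087133 on the minus strand (HSP90AA1, -89 to -60 relative to the start site), chr6:44247823-44247852 on the plus strand (HSP90AB1, -120 to -91), chr11:123062170-123062199 on the minus strand (HSPA8, -63 to -34), chr2:197500061-197500090 on the minus strand (HSPD1, -250 to -221) and chr11:90223083-90223112 on the minus strand (CHORDC1, -63 to -34). The others lie at chr11:75562169-75562198 on the plus strand (SERPINH1, -84 to -55), chr6:31815426-31815455 and chr6:31827622-31827651 on the plus strand (HSPA1A, -117 to -88, and HSPA1B, -116 to -87) and chr19:14518426-14518455 on the minus strand (DNAJB1, -58 to -29). All are upstream of the RefSeq start site used. HSPD1 has 2 RefSeq starts, at 197499840 and 197500274; its stretch is upstream of the first and downstream of the other, whose own window held no match.

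Of the 8 members with the 3-unit element 4 fell with SPANX KD 86 (HSP90AA1, HSP90AB1, CHORDC1 and HSPD1; median log2 fold change of the 8, -0.99), and of the 31 members with a window and no such match 21 fell (median -0.88). With SPANX KD 87 the counts were 1 of 8 and 3 of 31, with medians of -0.37 and -0.45. SERPINH1 and DNAJB6 carry the element and did not pass in either knockdown, while CCT7, TRAP1 and HSF2 fell with SPANX KD 86 and held neither it nor the shorter patterns in their windows. A match is a run of letters in this window and no measure of binding. A missing match means only that no exact run of these units lies in the window, and an element could lie outside it. The HSPD1 stretch, for example, lies upstream of the HSPE1 window, which begins at 197500129.

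The HSP90 proteins are the ATP-driven chaperones that fold kinases and hormone receptors. HSP90AA1 encodes the form of the cytosol that stress induces, and it stood at 63400, 52870 and 51760 normalised reads in the EV libraries, 18340, 14760 and 17850 with SPANX KD 86 and 23490, 33390 and 40470 with SPANX KD 87. All SPANX KD 86 libraries were below all SPANX KD 87 libraries, and these below all EV libraries. HSP90AA1 fell by 1.72 ± 0.25 (SE) on the log2 scale with SPANX KD 86 (limma adjusted p = 0.000793), and its log2 fold change with SPANX KD 87 was -0.82 ± 0.25 (limma adjusted p = 0.0654; 0.0192 with the replicate block, 0.00817 to 0.262 over the alternatives). The difference between the knockdowns was 0.91 ± 0.25 (limma adjusted p = 0.0239). HSP90AB1, the form made at all times, stood at 39570, 41820 and 27630 normalised reads in the EV libraries, 16460, 15800 and 16000 with SPANX KD 86 and 25330, 31040 and 31150 with SPANX KD 87. Here the SPANX KD 86 libraries were all below the EV libraries and the SPANX KD 87 libraries overlapped EV. HSP90AB1 fell by 1.15 ± 0.23 with SPANX KD 86 (limma adjusted p = 0.0035), and with SPANX KD 87 its 95% interval ran from -0.81 to 0.20. The knockdowns differed by 0.85 ± 0.23 (limma adjusted p = 0.02). For HSP90AA1 and HSP90AB1 alike this difference was lost without SPANX KD 87 replicate 2 or 3 or any SPANX KD 86 library. TRAP1, the HSP90 protein of mitochondria, had levels of 4562, 3534 and 3152 (EV), 1312, 1092 and 1229 (SPANX KD 86) and 2332, 2638 and 2891 (SPANX KD 87). Its groups were ordered like those of HSP90AA1. TRAP1 fell by 1.62 ± 0.19 with SPANX KD 86 (limma adjusted p = 0.000262), was at -0.50 ± 0.19 with SPANX KD 87 (limma adjusted p = 0.12; 0.0399 with the replicate block, 0.0216 to 0.349 over the alternatives) and differed by 1.11 ± 0.19 between the knockdowns (limma adjusted p = 0.00231). All 3 HSP90 genes thus fell with SPANX KD 86 (17.6% of all genes). All 3 were higher with SPANX KD 87 than with SPANX KD 86 (12.7% of all genes). Against EV 0 passed with SPANX KD 87, and 2 were at an unadjusted p under 0.05, beside 3798 of all 13825 genes. HSP90AA1, HSP90AB1, HSPA8, HSPD1, HSPE1, PTGES3 and several CCT genes have processed copies in the genome, and how reads shared with such copies were counted is not given in the sources used here.

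Of the HSP70 and HSP110 genes, 4 of 8 fell with SPANX KD 86 and 3 of 8 with SPANX KD 87, and HSPA9 and HSPA1A were in both sets (17.6% and 4.42% of all genes fell). With the replicate block 6 and 5 of the 8 were lower (28.3% and 14.8% of all genes). HSPA1A and HSPA1B, the stress-induced HSP70 genes, encode the same protein from neighbouring copies, and how reads shared by near-identical copies were counted is not given in the sources used here. HSPA1A stood at 1699, 1069 and 623 normalised reads in the EV libraries, 317, 272 and 229 with SPANX KD 86 and 330.0, 421 and 428 with SPANX KD 87. The EV libraries spread widely, from 623 to 1699, but all 6 knockdown libraries lay below them. HSPA1A fell by 1.94 ± 0.32 with SPANX KD 86 (limma adjusted p = 0.00139) and by 1.41 ± 0.32 with SPANX KD 87 (limma adjusted p = 0.021, lost without EV replicate 1, SPANX KD 87 replicate 1 or SPANX KD 87 replicate 2). HSPA1B had levels of 1227, 993 and 494 (EV), 273, 228 and 211 (SPANX KD 86) and 356, 476 and 443 (SPANX KD 87), in the same order of groups. It fell by 1.83 ± 0.31 with SPANX KD 86 (limma adjusted p = 0.00152) and was at -0.999 ± 0.31 with SPANX KD 87 (limma adjusted p = 0.0641; 0.0129 with the replicate block, 0.00741 to 0.229 over the alternatives). Summed over both genes the level was 2926, 2062 and 1117 in EV, 589.9, 500.8 and 439.7 with SPANX KD 86 and 686.2, 897.5 and 870.6 with SPANX KD 87. These 3 groups of libraries did not overlap. The group means of the sum were 3.99-fold lower with SPANX KD 86 and 2.49-fold lower with SPANX KD 87 than in EV. The difference of mean log2(sum + 1) from EV had p = 0.1 for each knockdown in an exact two-sided permutation test. This is the smallest p that 3 against 3 libraries can give.

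HSPA9, the HSP70 protein of mitochondria also called mortalin, had levels of 11230, 10510 and 7215 (EV), 5610, 5071 and 4772 (SPANX KD 86) and 4204, 5071 and 5268 (SPANX KD 87). All 6 knockdown libraries were below EV and the knockdowns overlapped each other. HSPA9 fell by 0.88 ± 0.21 with SPANX KD 86 (limma adjusted p = 0.00959) and by 0.97 ± 0.21 with SPANX KD 87 (limma adjusted p = 0.0185, lost without EV replicate 1, SPANX KD 87 replicate 1 or SPANX KD 87 replicate 2, and with only EV and SPANX KD 87 fitted), and the interval of the difference between the knockdowns was -0.56 to 0.38. HSPH1, an HSP110 protein that resets HSP70, stood at 7828, 10110 and 6110 (EV), 4220, 3702 and 3822 (SPANX KD 86) and 4424, 5577 and 5201 (SPANX KD 87). HSPH1 fell by 1.01 ± 0.21 with SPANX KD 86 (limma adjusted p = 0.00514), and with SPANX KD 87 its log2 fold change was -0.64 ± 0.21 (limma adjusted p = 0.0845; 0.0205 with the replicate block, 0.00453 to 0.285 over the alternatives). All 6 knockdown libraries of HSPH1 were below the EV libraries. HSPA2, an HSP70 protein known for its role in sperm development, stood at 91.1, 109 and 63.6 normalised reads in the EV libraries, 126, 113 and 130.1 with SPANX KD 86 and 25.2, 36.9 and 43.7 with SPANX KD 87. Its SPANX KD 86 libraries were all above EV and its SPANX KD 87 libraries all below. HSPA2 fell by 1.29 ± 0.29 with SPANX KD 87 (limma adjusted p = 0.021, lost without EV replicate 1, SPANX KD 87 replicate 1 or SPANX KD 87 replicate 2, and with only EV and SPANX KD 87 fitted), its value with SPANX KD 86 was 0.51 ± 0.29 (limma adjusted p = 0.191), and the difference of -1.81 ± 0.29 between the knockdowns passed (limma adjusted p = 0.00162).

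HSPA8, the HSP70 protein present in all cells, stood at 60360, 53570 and 29650 (EV), 32990, 23210 and 22640 (SPANX KD 86) and 46840, 40040 and 29210 (SPANX KD 87). EV replicate 3 was within the range of both knockdowns. Its log2 fold changes were -0.82 ± 0.32 with SPANX KD 86 (limma adjusted p = 0.0676; 0.00495 with the replicate block, 0.00402 to 0.208 over the alternatives) and -0.27 ± 0.32 with SPANX KD 87 (limma adjusted p = 0.622). HSPA4, an HSP110 protein, had levels of 6076, 7085 and 4485 (EV), 6246, 5382 and 5053 (SPANX KD 86) and 4549, 4573 and 4201 (SPANX KD 87), and its 95% intervals of -0.52 to 0.39 and -0.84 to 0.07 both held 0. HSPA4L, a close relative of HSPA4, was at -0.60 with SPANX KD 86 (limma adjusted p = 0.0654; 0.0165 with the replicate block, 0.00572 to 0.214 over the alternatives) and -0.26 with SPANX KD 87. HSPA4 and HSPA4L overlapped EV in both knockdowns.

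**Figure D2:**
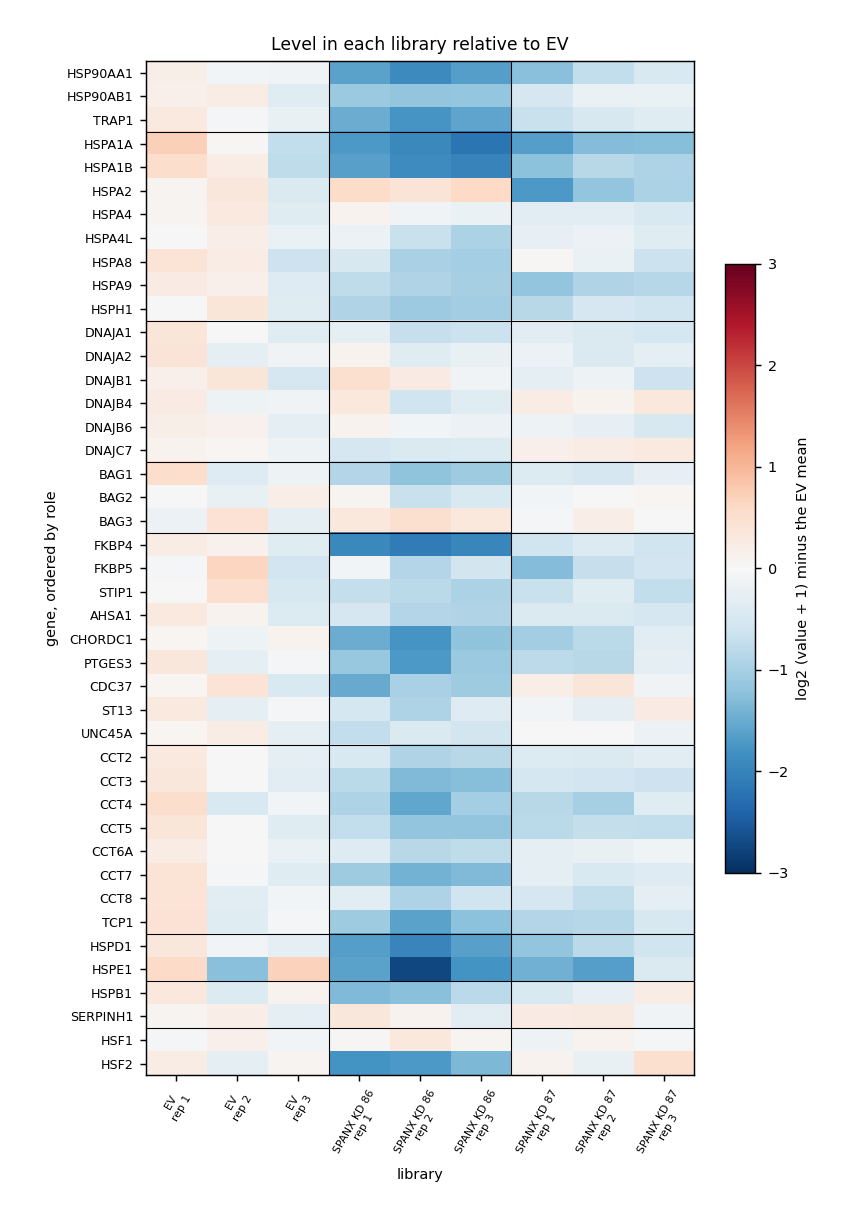
Level of each member (rows, ordered by role) in each of the 9 libraries (columns), as log2 of the value plus 1 minus the mean of the 3 EV libraries; blue is lower and red higher than EV. The SPANX KD 86 columns are blue for HSP90, most co-chaperones, the CCT ring and the mitochondrial chaperonin, the SPANX KD 87 columns are paler, and SERPINH1, HSF1 and most J-domain and BAG rows stay near 0.

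J-domain proteins deliver unfolded clients to HSP70. Of 6 members 1, DNAJC7, fell with SPANX KD 86, a share near the 17.6% of all genes, and 0 passed with SPANX KD 87 (0 at an unadjusted p under 0.05, beside 3798 of all 13825 genes). DNAJB1, a partner of HSP70 that stress induces, stood at 3735, 4349 and 2393 normalised reads in the EV libraries, 4754, 4032 and 3127 with SPANX KD 86 and 2791, 3058 and 2199 with SPANX KD 87. The groups overlapped EV, with log2 fold changes of 0.21 ± 0.26 and -0.35 ± 0.26, and all SPANX KD 87 libraries were below all SPANX KD 86 libraries (-0.56 ± 0.26, limma adjusted p = 0.142; 0.0112 with the replicate block, 0.00327 to 0.356 over the alternatives). DNAJA1, a J-domain protein of the cytosol, had levels of 10560, 8063 and 6342 (EV), 6646, 5003 and 5238 (SPANX KD 86) and 6494, 6049 and 5634 (SPANX KD 87). EV replicate 3 lay within the knockdowns' range for DNAJA1, and its value with SPANX KD 86 was -0.54 (limma adjusted p = 0.0797; 0.0119 with the replicate block, 0.00566 to 0.247 over the alternatives). DNAJC7, which binds both HSP70 and HSP90, stood at 2425, 2355 and 2046 (EV), 1587, 1685 and 1707 (SPANX KD 86) and 2535, 2645 and 2772 (SPANX KD 87). The SPANX KD 86 libraries were all below EV and the SPANX KD 87 libraries all above. DNAJC7 fell by 0.45 ± 0.16 with SPANX KD 86 (limma adjusted p = 0.0469). This call was lost under 12 of 19 alternatives, among them the removal of any library other than EV replicate 3. The difference between the knockdowns was 0.68 ± 0.16 (limma adjusted p = 0.011). DNAJA2, DNAJB4 and DNAJB6 overlapped EV in both knockdowns, with log2 fold changes from -0.21 to -0.05 for SPANX KD 86 and from -0.29 to 0.22 for SPANX KD 87.

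BAG proteins release clients from HSP70 by driving out its ADP. BAG1 had levels of 2088, 1099 and 1302 (EV), 786, 624 and 685 (SPANX KD 86) and 1076, 1009 and 1206 (SPANX KD 87). All its SPANX KD 86 libraries were below EV, and it fell by 1.05 ± 0.24 (limma adjusted p = 0.00696), while with SPANX KD 87 it was at -0.40 ± 0.24 (limma adjusted p = 0.31). BAG3, which stress induces and which hands clients to autophagy, was at 0.37 with SPANX KD 86 (95% interval -0.09 to 0.83; limma adjusted p = 0.187; 0.0503 with the replicate block, 0.0207 to 0.441 over the alternatives). It passed as higher without EV replicate 2, and with the length trend removed and the replicate block. With SPANX KD 87 BAG3 was at 0.05 (95% interval -0.41 to 0.51). BAG2, an inhibitor of the ubiquitin ligase that acts on HSP70 clients, was at -0.35 and -0.01. BAG2 and BAG3 overlapped EV in both knockdowns.

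Of the 9 genes grouped as HSP90 co-chaperones 7 fell with SPANX KD 86 (17.6% of all genes), with a median log2 fold change of -0.83. The group includes ST13, which acts on HSP70. With SPANX KD 87, 0 of the 9 passed by limma without the block, and 5 were lower with the block (14.8% of all genes). An unadjusted p under 0.05 was seen in 5 of the 9, beside 3798 of all 13825 genes. FKBP4, the immunophilin FKBP52 that holds steroid receptors to HSP90, stood at 3610, 3403 and 2426 normalised reads in the EV libraries, 813, 726 and 802 with SPANX KD 86 and 2056, 2321 and 2062 with SPANX KD 87. Its SPANX KD 86 libraries lay between 726 and 813, far below every other library, and its SPANX KD 87 libraries lay between them and EV. FKBP4 fell by 1.99 ± 0.19 with SPANX KD 86 (limma adjusted p = 9.32e-05), its value with SPANX KD 87 was -0.53 ± 0.19 (limma adjusted p = 0.0984; 0.0272 with the replicate block, 0.0186 to 0.279 over the alternatives), and the knockdowns differed by 1.46 ± 0.19 (limma adjusted p = 0.000586). FKBP5, its relative FKBP51, a target gene of the glucocorticoid receptor, had low levels of 163, 267 and 113 (EV), 161, 92.2 and 116 (SPANX KD 86) and 68.3, 106 and 114 (SPANX KD 87). The groups overlapped, and its values of -0.50 ± 0.35 and -0.86 ± 0.35 did not pass (limma adjusted p = 0.283 and 0.144).

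CDC37, which brings protein kinases to HSP90, stood at 6011, 7709 and 4226 normalised reads in the EV libraries, 2043, 2969 and 2785 with SPANX KD 86 and 6620, 7433 and 5362 with SPANX KD 87. The SPANX KD 86 libraries were far below both other groups, and the SPANX KD 87 libraries lay within the EV range. CDC37 fell by 1.18 ± 0.26 with SPANX KD 86 (limma adjusted p = 0.00559), with SPANX KD 87 its 95% interval ran from -0.42 to 0.71, and the knockdowns differed by 1.32 ± 0.26 (limma adjusted p = 0.00408). CHORDC1, an HSP90 partner also called morgana, had levels of 1745, 1512 and 1807 (EV), 599.6, 490.2 and 730.5 (SPANX KD 86) and 819, 965 and 1320 (SPANX KD 87). The groups of CHORDC1 did not overlap and SPANX KD 86 was the lowest. It fell by 1.49 ± 0.22 with SPANX KD 86 (limma adjusted p = 0.00088), was at -0.73 ± 0.22 with SPANX KD 87 (limma adjusted p = 0.0637; 0.00646 with the replicate block, 0.00347 to 0.245 over the alternatives) and differed by 0.76 ± 0.22 between them (limma adjusted p = 0.0301, lost without SPANX KD 86 replicate 1 or 2 or SPANX KD 87 replicate 2 or 3). PTGES3, the co-chaperone p23 that holds HSP90 in its closed form, stood at 13800, 9075 and 10590 (EV), 4980, 3309 and 5083 (SPANX KD 86) and 6425, 6170 and 9186 (SPANX KD 87). All its SPANX KD 86 libraries were below all others, and it fell by 1.33 ± 0.26 (limma adjusted p = 0.00304), while its SPANX KD 87 libraries overlapped EV (-0.62 ± 0.26, limma adjusted p = 0.145; 0.0237 with the replicate block, 0.0237 to 0.383 over the alternatives).

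STIP1, also called HOP, carries clients from HSP70 to HSP90, and had levels of 5032, 7149 and 3646 (EV), 3071, 2877 and 2650 (SPANX KD 86) and 3216, 3933 and 3070 (SPANX KD 87). AHSA1 speeds up the ATPase of HSP90, and had levels of 3789, 3286 and 2323 (EV), 2172, 1677 and 1650 (SPANX KD 86) and 2290, 2287 and 2151 (SPANX KD 87). UNC45A is a chaperone of myosin that works with HSP90, and had levels of 1706, 1890 and 1331 (EV), 970.5, 1205 and 1110 (SPANX KD 86) and 1610, 1646 and 1443 (SPANX KD 87). In all 3 the SPANX KD 86 libraries were below EV. The log2 fold changes with SPANX KD 86 were -0.83 for STIP1 (limma adjusted p = 0.0223), -0.76 for AHSA1 (limma adjusted p = 0.0191) and -0.57 for UNC45A (limma adjusted p = 0.0344). Each of these calls was lost without EV replicate 1, SPANX KD 86 replicate 2 or SPANX KD 86 replicate 3, and that of AHSA1 also with the length trend removed. The UNC45A call was also lost without EV replicate 2, SPANX KD 86 replicate 1 or SPANX KD 87 replicate 1 or 2, and with only EV and SPANX KD 86 fitted. STIP1 was at -0.59 with SPANX KD 87 (limma adjusted p = 0.147; 0.0253 with the replicate block, 0.0196 to 0.352 over the alternatives) and AHSA1 at -0.45 (limma adjusted p = 0.198; 0.0449 with the replicate block, 0.0449 to 0.484 over the alternatives). UNC45A differed between the knockdowns by 0.52 (limma adjusted p = 0.0645; 0.0145 with the replicate block, 0.00276 to 0.182 over the alternatives). ST13, also called HIP, which steadies HSP70 on its client, was at -0.61 with SPANX KD 86 with all libraries below EV (limma adjusted p = 0.0565; 0.00581 with the replicate block, 0.00349 to 0.214 over the alternatives) and at -0.03 with SPANX KD 87.

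The CCT ring, also called TRiC, is built from 8 different subunits, and 7 of the 8 genes fell with SPANX KD 86, beside 17.6% of all genes. In all 8 the 3 SPANX KD 86 libraries lay below the 3 EV libraries (22.8% of all genes), and the median log2 fold change was -1.09. The exception was CCT8, at -0.62 ± 0.24 (limma adjusted p = 0.0673; 0.0073 with the replicate block, 0.0073 to 0.239 over the alternatives). TCP1, the first subunit of the ring, stood at 11990, 6932 and 8619 normalised reads in the EV libraries, 4262, 2950 and 3801 with SPANX KD 86 and 4864, 4912 and 6383 with SPANX KD 87. Its knockdown libraries were all below EV and SPANX KD 86 was below SPANX KD 87. TCP1 fell by 1.302 ± 0.24 with SPANX KD 86 (limma adjusted p = 0.00275) and was at -0.74 ± 0.24 with SPANX KD 87 (limma adjusted p = 0.079; 0.0108 with the replicate block, 0.00536 to 0.254 over the alternatives). CCT7 had levels of 13510, 9761 and 7954 (EV), 4835, 3804 and 4073 (SPANX KD 86) and 8298, 7402 and 7725 (SPANX KD 87). CCT3 had levels of 16620, 12910 and 10320 (EV), 7419, 5209 and 5402 (SPANX KD 86) and 9038, 8686 and 8427 (SPANX KD 87). For CCT5 they were 17950, 13920 and 10740 (EV), 8270, 6143 and 6120 (SPANX KD 86) and 7980, 8503 and 8351 (SPANX KD 87). In these 3 genes EV replicate 1 was the highest library. CCT4 had levels of 14620, 7463 and 9690 (EV), 5320, 3435 and 5008 (SPANX KD 86) and 5704, 5078 and 7974 (SPANX KD 87). CCT2 had levels of 11090, 8900 and 7338 (EV), 6548, 4799 and 5025 (SPANX KD 86) and 6764, 6700 and 7137 (SPANX KD 87). For CCT6A they were 10920, 9327 and 8113 (EV), 7140, 5297 and 5565 (SPANX KD 86) and 7769, 8003 and 8634 (SPANX KD 87). EV replicate 1 was again the highest library in all 3. The falls with SPANX KD 86 ranged from 0.66 in CCT6A (limma adjusted p = 0.0256) and 0.73 in CCT2 (0.0211) through 1.04 in CCT5 (0.00618), 1.14 in CCT3 (0.00372), 1.18 in CCT4 (0.0106) and 1.27 in CCT7 (0.0019) to that of TCP1. The calls of CCT2 and CCT6A were lost without EV replicate 1, SPANX KD 86 replicate 2 or SPANX KD 86 replicate 3, and with only EV and SPANX KD 86 fitted. That of CCT4 was lost without SPANX KD 86 replicate 2.

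With SPANX KD 87 all 8 CCT genes were below 0, between -0.75 in CCT5 and -0.21 in CCT6A, with a median of -0.54. In 4 of them the libraries lay below all EV libraries (CCT2, CCT3, CCT5 and TCP1; 14% of all genes). Without the block 0 of the 8 passed, 4 had an unadjusted p under 0.05 (3798 of all 13825 genes), and 5 were lower with the replicate block (14.8% of all genes). Beside TCP1 these were CCT3 at -0.58 (limma adjusted p = 0.13; 0.0211 with the replicate block, 0.0134 to 0.352 over the alternatives), CCT4 at -0.73 (limma adjusted p = 0.133; 0.016 with the replicate block, 0.00751 to 0.387 over the alternatives), CCT5 at -0.75 (limma adjusted p = 0.0637; 0.0098 with the replicate block, 0.00505 to 0.207 over the alternatives) and CCT8 at -0.51 (limma adjusted p = 0.202; 0.0343 with the replicate block, 0.0212 to 0.518 over the alternatives). CCT7 alone differed between the knockdowns without the block, by 0.89 ± 0.22 (limma adjusted p = 0.0144, lost without SPANX KD 86 replicate 2 or SPANX KD 87 replicate 1).

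HSPD1 and HSPE1 encode HSP60 and HSP10, the chaperonin of mitochondria and its lid, and are transcribed in opposite directions on chromosome 2: the RefSeq start of HSPE1 is at 197500379 and the nearer start of HSPD1 at 197500274, 105 bases apart (GRCh38.p14). HSPD1 stood at 21000, 15770 and 13730 normalised reads in the EV libraries, 5290, 4206 and 5341 with SPANX KD 86 and 7342, 9439 and 10990 with SPANX KD 87. The groups did not overlap, with SPANX KD 86 the lowest and EV the highest. HSPD1 fell by 1.75 ± 0.23 with SPANX KD 86 (limma adjusted p = 0.000482) and by 0.86 ± 0.23 with SPANX KD 87 (limma adjusted p = 0.0425), and the knockdowns differed by 0.89 ± 0.23 (limma adjusted p = 0.0182). The call with SPANX KD 87 was lost under 8 of 19 alternatives, among them the removal of EV replicate 1, of any SPANX KD 86 library or of SPANX KD 87 replicate 1 or 2. The difference between the knockdowns was lost without SPANX KD 86 replicate 2 or SPANX KD 87 replicate 2 or 3. HSPE1 stood at 3709, 1049 and 4013 (EV), 818, 379 and 725 (SPANX KD 86) and 922, 799 and 1847 (SPANX KD 87). EV replicate 2 was well below the other EV libraries and within the range of SPANX KD 87. The replicate 2 library was also the lowest in both knockdowns. HSPE1 fell by 2.04 ± 0.52 with SPANX KD 86 (limma adjusted p = 0.0119, lost without EV replicate 1 or SPANX KD 86 replicate 2) and was at -1.17 ± 0.52 with SPANX KD 87 (limma adjusted p = 0.17; 0.00727 with the replicate block, 0.00376 to 0.439 over the alternatives).

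HSPB1 is the small heat shock protein HSP27, which holds unfolded proteins without using ATP. It had levels of 3108, 1873 and 2695 (EV), 1006, 1048 and 1425 (SPANX KD 86) and 1814, 2106 and 2939 (SPANX KD 87). The SPANX KD 86 libraries were below all others and the SPANX KD 87 libraries overlapped EV. HSPB1 fell by 1.13 ± 0.26 with SPANX KD 86 (limma adjusted p = 0.00693), had a 95% interval of -0.72 to 0.40 with SPANX KD 87, and differed by 0.97 ± 0.26 between the knockdowns (limma adjusted p = 0.0187, lost without SPANX KD 86 replicate 1 or 2 or SPANX KD 87 replicate 3). SERPINH1, also called HSP47, the collagen chaperone of the endoplasmic reticulum, was at 0.05 and 0.14, with intervals of -0.44 to 0.54 and -0.35 to 0.63, and all groups overlapped.

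HSF1 and HSF2 are the transcription factors that bind heat shock elements, and HSF2 fell with SPANX KD 86 where HSF1 did not pass. HSF1 stood at 1420, 1625 and 1382 normalised reads in the EV libraries, 1517, 1824 and 1557 with SPANX KD 86 and 1314, 1574 and 1440 with SPANX KD 87. The groups overlapped, and the intervals of its log2 fold change were -0.23 to 0.52 with SPANX KD 86 and -0.41 to 0.34 with SPANX KD 87. HSF2 stood at 321, 224 and 294 normalised reads in the EV libraries, 79.4, 82.6 and 108 with SPANX KD 86 and 296, 238 and 388 with SPANX KD 87. The SPANX KD 86 libraries were at most at 108, and all other libraries were at least at 224. HSF2 fell by 1.62 ± 0.25 with SPANX KD 86 (limma adjusted p = 0.00101), had an interval of -0.43 to 0.67 with SPANX KD 87, and differed by 1.75 ± 0.25 between the knockdowns (limma adjusted p = 0.000905). These are transcript levels, and HSF1 is known to be controlled mainly as a protein.

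**Figure D3:**
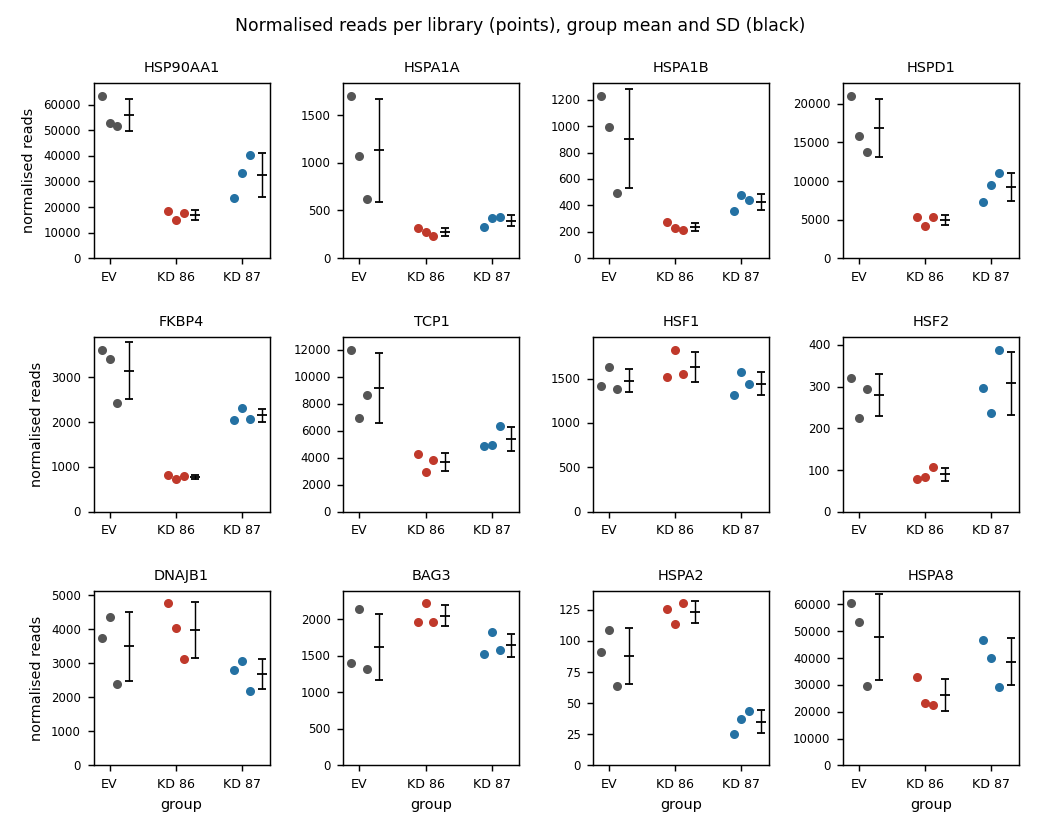
Normalised reads of 12 members in each library (points, 3 per group), with the group mean and SD in black; each panel has its own linear y axis from 0. FKBP4, HSPD1, HSP90AA1 and TCP1 lie lower in both knockdowns, with SPANX KD 86 the lowest, HSF2 is low with SPANX KD 86 only, HSPA2 is low with SPANX KD 87 only, and HSF1, DNAJB1 and BAG3 overlap EV.

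Within a group the members shifted together from library to library. In EV replicate 1, 38 of 43 members were above their group mean (median deviation 0.25 on the log2 scale), and in EV replicate 3 only 5 were (median -0.27), with EV replicate 2 between them (22 members). In SPANX KD 86 the counts were 36, 9 and 17 for replicates 1, 2 and 3, and in SPANX KD 87 they were 14, 26 and 28. The median deviation of all genes stayed between -0.03 and 0.04 in every library. The rescaling of all libraries together holds this median near 0, so it cannot show whether the shift is particular to the members. Leaving out EV replicate 1 reduced the members that fell with SPANX KD 86 from 27 to 20, and leaving out SPANX KD 86 replicate 2 to 19. Over all genes those that fell dropped as well, from 2434 to 1585 and to 1420, so the loss is not particular to the members. Of the 27, 19 passed in every setting tried. The 8 that did not were DNAJC7, STIP1, AHSA1, UNC45A, CCT2, CCT4, CCT6A and HSPE1.

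Transcript length also moved with the differences. Over all genes the median log2 fold change with SPANX KD 86 rose from -0.45 in the shortest of 5 groups of genes by length to 0.36 in the longest, and with SPANX KD 87 from -0.22 to 0.19. The members have a median length of 2270 bases, from 570 in HSPE1 to 6651 in BAG2, near the middle length group, where the median of all genes was -0.01 with SPANX KD 86 and that of the 14 members there was -0.91. Across the 43 members, which share the same libraries, log2 length and log2 fold change had r = 0.30 with SPANX KD 86 and 0.03 with SPANX KD 87. With the length trend removed the members' median was -0.74 with SPANX KD 86, and 27 fell again (19.7% of all genes), with HSPA4L and ST13 in place of DNAJC7 and AHSA1. With SPANX KD 87 the median was -0.37, and 9 fell (7.55% of all genes), those added being HSP90AA1, HSPA1B, HSPH1, CHORDC1 and TCP1.

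**Figure D4:**
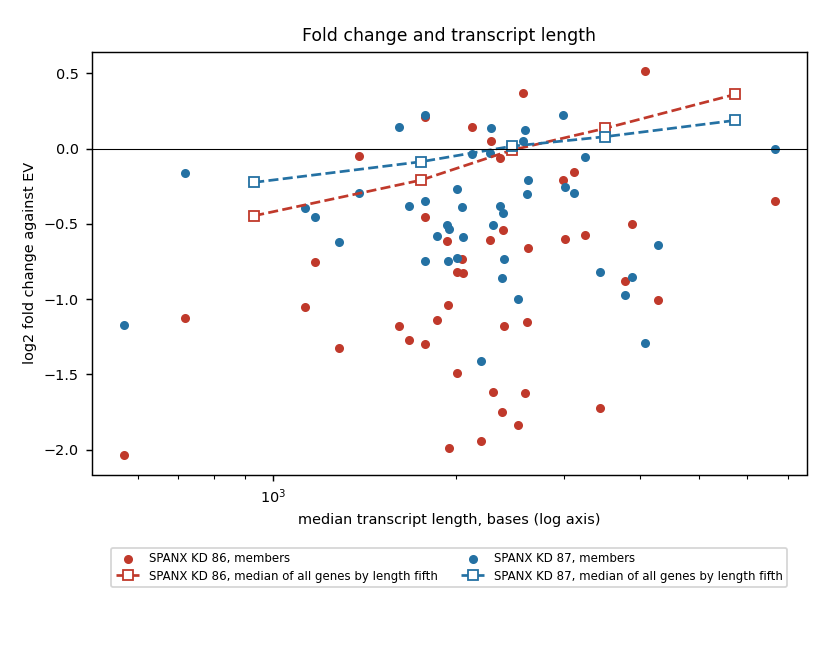
Log2 fold change against EV (y axis) by median transcript length (x axis, log scale) for the 43 members (points) in SPANX KD 86 (red) and SPANX KD 87 (blue); open squares joined by dashed lines are the medians of all genes in 5 equal groups by length. Most red points lie below the red line at every length, and the all-gene medians run from -0.45 to 0.36 for SPANX KD 86.

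Chaperone genes outside the set were counted in lists of related genes. Among 23 tested co-chaperones of HSP70 and HSP90 outside the set, 10 fell and 1 rose with SPANX KD 86 (median -0.57; 17.6% of all genes fell and 18% rose). With SPANX KD 87, 1 fell and 1 rose (median -0.22), shares near those of all genes (4.42% and 5.9%). With the replicate block 13 were lower with SPANX KD 86 and 5 with SPANX KD 87, and 1 and 2 were higher, beside 28.3%, 14.8%, 27% and 16.1% of all genes. SGTA, which guides tail-anchored membrane proteins, stood at 2027, 1716 and 1250 (EV), 379, 357 and 408 (SPANX KD 86) and 747, 975 and 1022 (SPANX KD 87). It fell by 2.10 with SPANX KD 86 (limma adjusted p = 0.000131) and by 0.85 with SPANX KD 87 (limma adjusted p = 0.0327). The call with SPANX KD 87 was lost without EV replicate 1, SPANX KD 86 replicate 2 or 3 or SPANX KD 87 replicate 1 or 2, and when only those 2 groups were fitted. HSPBP1, an exchange factor of HSP70, and NUDC, an HSP90 partner, fell by 1.16 and 1.03 with SPANX KD 86 (limma adjusted p = 0.00212 and 0.00542). Of 13 mitochondrial chaperones and proteases 5 fell and 0 rose with SPANX KD 86 (median -0.44), beside 17.6% and 18% of all genes. With SPANX KD 87, 1 fell (median -0.29), beside 4.42% of all genes. With the replicate block 6 were lower with SPANX KD 86 and 2 with SPANX KD 87, beside 28.3% and 14.8% of all genes. The blocked share with SPANX KD 87 was thus near that of all genes. LONP1, the protease that clears damaged proteins of the mitochondrial matrix, stood at 3516, 3184 and 2279 (EV), 317, 490.2 and 647 (SPANX KD 86) and 1887, 2617 and 2382 (SPANX KD 87). It fell by 2.66 with SPANX KD 86 (limma adjusted p = 0.000135) and was at -0.37 with SPANX KD 87 (limma adjusted p = 0.415). TIMM44, which ties HSPA9 to the import channel, fell by 1.17 (limma adjusted p = 0.00109) and AFG3L2, a protease of the inner membrane, by 1.14 (limma adjusted p = 0.00168), both with SPANX KD 86.

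Prefoldin and the tubulin folding cofactors hand clients to the CCT ring or take them from it. Of 18 tested genes 5 fell and 1 rose with SPANX KD 86 (median -0.54, or -0.15 with the length trend removed), beside 17.6% and 18% of all genes. With SPANX KD 87, 0 fell and 1 rose, beside 4.42% and 5.9% of all genes. With the replicate block 10 were lower and 1 higher with SPANX KD 86 (28.3% and 27% of all genes), and 6 lower and 1 higher with SPANX KD 87 (14.8% and 16.1%). TBCD, a tubulin cofactor, fell by 1.63 (limma adjusted p = 0.00167), TBCE, another, by 0.93 (0.00554), and PDRG1, a prefoldin-like protein, by 1.03 (0.00752), all with SPANX KD 86. TBCE was at -0.58 with SPANX KD 87 (limma adjusted p = 0.0941; 0.0221 with the replicate block, 0.0221 to 0.289 over the alternatives). Of 10 assembly chaperones of the R2TP and SMN type, which build large complexes with HSP90, 4 fell and 0 rose with SPANX KD 86 (median -0.91), beside 17.6% and 18% of all genes. With SPANX KD 87, 0 passed without the block, and 1 was at an unadjusted p under 0.05, beside 3798 of all 13825 genes. With the block 6 were lower with SPANX KD 86 and 2 with SPANX KD 87, beside 28.3% and 14.8% of all genes. PIH1D1 fell by 1.68 (limma adjusted p = 0.00172), RUVBL2 by 1.29 (0.000864) and RUVBL1 by 1.15 (0.00228) with SPANX KD 86. RUVBL2 was at -0.62 with SPANX KD 87 (limma adjusted p = 0.0682; 0.0211 with the replicate block, 0.0211 to 0.263 over the alternatives).

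Of 33 other J-domain proteins 4 fell (12.1%, beside 17.6% of all genes) and 2 rose (18% of all genes) with SPANX KD 86 (median -0.15). With SPANX KD 87, 0 fell and 2 rose (median -0.01), beside 4.42% and 5.9% of all genes. With the replicate block 9 were lower and 7 higher with SPANX KD 86 (28.3% and 27% of all genes), and 0 lower and 6 higher with SPANX KD 87 (14.8% and 16.1%). DNAJA3, the J-domain partner of HSPA9 in mitochondria, fell by 1.29 (limma adjusted p = 0.000454) and DNAJC17 by 1.16 (0.00299), while DNAJC16 rose by 1.37 (0.00214), all with SPANX KD 86. Of 6 other HSP70 and HSP110 family genes 2 rose and 0 fell with SPANX KD 86 (median 0.51), beside 18% and 17.6% of all genes. The 2 were HSPA5, the HSP70 protein of the endoplasmic reticulum, and HSPA13. With the replicate block 1 of the 6 was lower and 2 higher with SPANX KD 86 (28.3% and 27% of all genes). With SPANX KD 87, 2 were then lower and 1 higher (14.8% and 16.1% of all genes). HSPA5 stood at 11870, 10830 and 12880 (EV), 20300, 18790 and 17840 (SPANX KD 86) and 10330, 10500 and 12930 (SPANX KD 87). It rose by 0.68 with SPANX KD 86 (limma adjusted p = 0.0195) and was at -0.08 with SPANX KD 87 (limma adjusted p = 0.819; difference -0.76, limma adjusted p = 0.0154). The rise was lost without SPANX KD 86 replicate 1 or 2, and the difference without these or SPANX KD 87 replicate 1 or 2. HSPA13 rose by 0.60 (limma adjusted p = 0.0496), and neither rise passed with the length trend removed, where 0 of the 6 were higher. The HSPA13 call was lost under 13 of 19 alternatives, among them the removal of any library other than EV replicate 3. HSPA14 was the 1 of the 6 that fell with SPANX KD 87, beside 4.42% of all genes. Its fall was 1.38 (limma adjusted p = 0.0332, lost without EV replicate 1 or 3 or SPANX KD 87 replicate 1 or 2, and with only those 2 groups fitted). Of the genes listed by symbol as small heat shock proteins outside the set 2 of 9 were tested, HSPB8, which fell by 0.83 with SPANX KD 86 (limma adjusted p = 0.0296) and was at 0.48 with SPANX KD 87, and HSPB11. HSPB11 is counted here by its symbol only. The HSPB8 call was lost without EV replicate 1 or 2 or SPANX KD 86 replicate 2 or 3, and with only those 2 groups fitted. HSPB11 was at -0.74 with SPANX KD 86 (limma adjusted p = 0.279; 0.019 with the replicate block, 0.0156 to 0.688 over the alternatives) and at -1.04 with SPANX KD 87 (limma adjusted p = 0.219; 0.00783 with the replicate block, 0.00392 to 0.509 over the alternatives). Of 6 other heat shock factors and regulators 0 passed in either knockdown by limma without the block. With SPANX KD 86 and SPANX KD 87, 2 and 0 were at an unadjusted p under 0.05, beside 6411 and 3798 of all 13825 genes. With the block 3 were lower with SPANX KD 86 (28.3% of all genes) and 0 passed with SPANX KD 87. The 3 were VCP at -0.73 (limma adjusted p = 0.0653; 0.0044 with the replicate block, 0.000161 to 0.168 over the alternatives), IER5 at -0.51 (limma adjusted p = 0.0873; 0.0418 with the replicate block, 0.00669 to 0.284 over the alternatives) and HSBP1 at -0.58 (limma adjusted p = 0.222; 0.0151 with the replicate block, 0.002 to 0.55 over the alternatives).

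**Figure D5:**
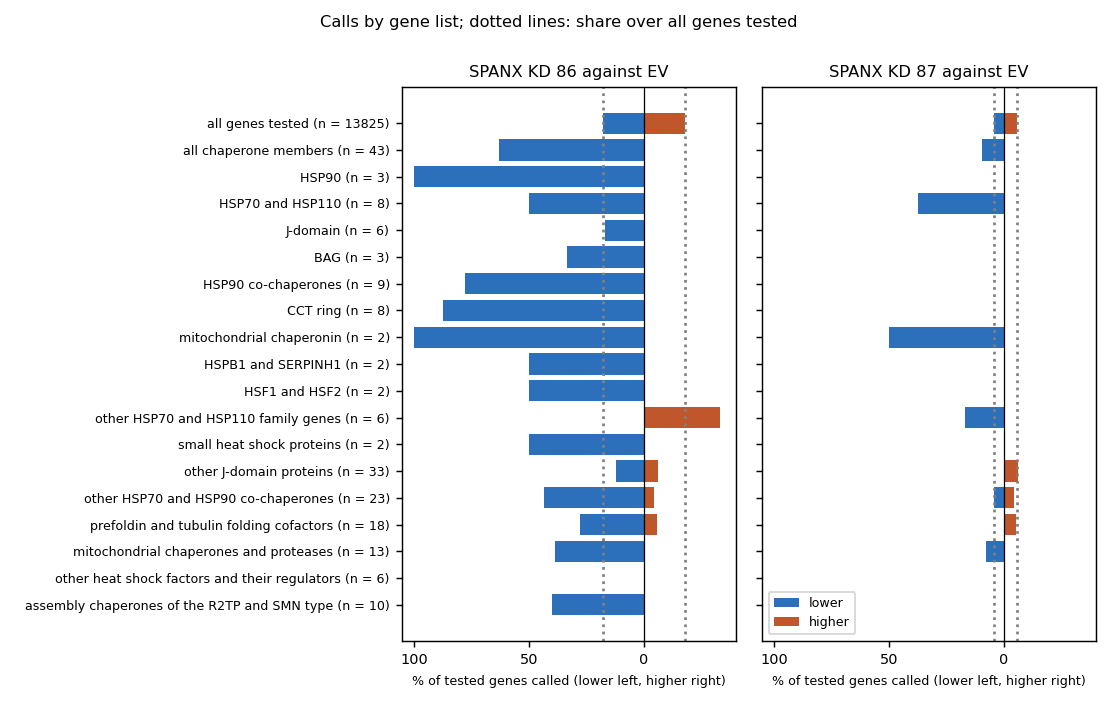
Share of tested genes called lower (bars to the left) and higher (bars to the right) in each role of the set and in each list of related genes, for SPANX KD 86 (left panel) and SPANX KD 87 (right panel); dotted lines mark the shares over all 13825 genes, 17.6% lower and 18% higher on the left and 4.42% and 5.9% on the right. HSP90, the mitochondrial chaperonin, the CCT ring and the HSP90 co-chaperones reach furthest to the left with SPANX KD 86, and lists of 2 or 3 genes can take few values.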

How the data were processed

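The deposited values are normalised read counts, here treated as scores: per the file headers they are normalised, and the authors scaled each library and rounded to whole numbers. Per the submitters' processing notes STAR, Subread, featureCounts and edgeR were used with build hg19, with no versions or order given. Normalisation, filters and the counting of shared reads are not given in the sources used here. The spacing of the values gave the reads behind them, 11310800 to 15564200 per library, and all 9 libraries were rescaled together with the TMM formula, since 400 gene IDs are above 0 in EV and SPANX KD 86 only and 453 in SPANX KD 87 only, a sign of separate filtering. Of repeated IDs the first row was kept (15 had unequal rows). Levels are on this common scale, kept to 4 significant digits in the results and rounded further below 1000.

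A count test had been planned, but scaled and rounded values called for limma 3.58.1 (R 4.3.3) on log2(value + 1) (low levels thus give understated fold changes), with a variance trend and all 9 libraries in 1 fit, two-sided, Benjamini-Hochberg over 13825 genes, threshold 0.05; the scripts were tested on simulated data. Deviations from the group mean correlated across 13310 genes with r of 0.21 to 0.75 in all 9 pairs of libraries with equal replicate number. In the 18 others r was -0.66 to 0.15. The deviations sum to 0 within each group, so the low values of these 18 follow in part from the 9 and are no separate support. The labels give replicate numbers and state no pairing. Counts of calls with the number as a block are given where they differ. Transcript lengths came from GENCODE v29, for 13770 tested genes, and the length trend was removed as a spline with 4 degrees of freedom. Promoter windows are from RefSeq (GRCh38.p14), another build than the files', and were matched by symbol only.

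The members, the related lists and the tests were chosen with earlier results of these data known. Named are all members, with values in every library for those that passed in any comparison and for the leading genes of each role, up to 3 genes of each related list with the smallest adjusted p, and SPANXC and SPANXD. Protein sequences were not analysed here.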

Additional observations from a re-analysis of the deposited data

Results flagged for a closer look

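In 12 chaperone genes the change from EV differed between the knockdowns in the test of that difference (limma adjusted p under 0.05 over all genes), which is the same as the direct comparison of SPANX KD 87 with SPANX KD 86. The change with SPANX KD 87 exceeded that with SPANX KD 86, on the log2 scale, by 1.75 in HSF2, 1.46 in FKBP4, 1.32 in CDC37, 1.11 in TRAP1, 0.97 in HSPB1, 0.91 in HSP90AA1, 0.89 in HSPD1, 0.89 in CCT7, 0.85 in HSP90AB1, 0.76 in CHORDC1 and 0.68 in DNAJC7. In HSPA2 it was lower, by -1.81. Of the 12, 6 passed in every setting tried (HSF2, FKBP4, CDC37, TRAP1, DNAJC7 and HSPA2). What sets the knockdowns apart was not tested.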

How the results depend on the processing

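The direction of every member that passed was the same in all 19 alternatives, and a sign change was seen only in members that did not pass (5, 8 and 3 members for SPANX KD 86 against EV, SPANX KD 87 against EV and SPANX KD 87 against SPANX KD 86). For the members with SPANX KD 86 the count stayed within 1.5 times of 27 (19 to 29 with 1 library left out). All of these were lower except BAG3, which was higher without EV replicate 2 and with the length trend removed and the replicate block. With the replicate block, members with SPANX KD 87 came to 19 and between the knockdowns to 23, and all genes to 7646, 4284 and 6096. With the length trend removed and the replicate block the values were 20 and 27 for the members and 7616, 4807 and 6599 for all genes. The length trend alone gave 9 members with SPANX KD 87, the 2 groups alone gave 1 member and 858 genes, and testing every gene above 0 gave 2631 genes. With 1 library left out, members with SPANX KD 87 ranged from 0 to 8 and between the knockdowns from 6 (without SPANX KD 86 replicate 2; 7 without SPANX KD 87 replicate 3) to 15, and all genes ranged from 3053 to 6016, from 367 to 2551 and from 2202 to 4192. The block added calls of members and ended none. The summed HSPA1A and HSPA1B log2 ratio stayed between -2.29 and -1.64 with SPANX KD 86 and between -1.61 and -0.96 with SPANX KD 87. HSPA2 and FKBP5 carry the fewest reads of the set, which limits their precision. Causes of these shifts were not tested.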
